A study of Mus musculus with 6 samples.

Results

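The HOX genes, which specify position along the body axis, were followed by RNA-seq in the thyroid of female mice aged 12 weeks. The members were all rows of the count table whose symbol is Hox, one of the letters a to d, and digits only, and they numbered 39 of 21878 genes. They comprised 11 HoxA, 10 HoxB, 9 HoxC and 9 HoxD genes. The groups were 3 Thy-Tet1+/+ mice, wild-type littermates, and 3 Thy-Tet1-/- mice, in which a floxed Tet1 allele was combined with a Cre transgene. Cre acts in follicular epithelial cells, so that the other cells of a whole gland keep Tet1. The samples were titled control 1 to 3 and treatment 1 to 3. These titles were read as Thy-Tet1+/+ and Thy-Tet1-/-, the labels used here. No treatment beyond the genotype is described for these mice, and each library came from 1 mouse.

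HOX genes encode homeodomain transcription factors, and in mammals they lie in 4 clusters in which the gene's number gives its position. Genes with low numbers lie at the 3′ end of a cluster and are used further forward in the embryo than genes with high numbers. HOX proteins bind DNA together with TALE homeodomain proteins of the PBX, MEIS and PKNOX families. Polycomb proteins keep HOX clusters silent, Trithorax proteins keep them active, and retinoic acid switches on their 3′ genes. In the pharynx, Hoxa3 is required for the thymus and the parathyroid glands, and adult fibroblasts and fat cells keep a HOX pattern that reflects where in the body they lie. TET1 oxidises 5-methylcytosine, which in mammals lies mostly at CG dinucleotides.

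Total counts were between 8867683 and 19950898 per library, so that 3 counts corresponded to between 0.1504 and 0.3383 CPM, that is counts scaled to library size. These floors cover counting error only. Levels are CPM on library sizes scaled by the trimmed mean of M values (TMM). Differences are log2 fold changes of Thy-Tet1-/- over Thy-Tet1+/+ from edgeR's quasi-likelihood test. Their standard error (SE) was derived as the absolute log2 fold change divided by the square root of that test's F statistic. Tet1 itself, the targeted gene, had 5.69, 3.8 and 3.44 CPM in the Thy-Tet1+/+ libraries and 9.37, 9.6 and 12.2 CPM in those labelled Thy-Tet1-/-. Its level thus went against the label (log2 fold change 1.28 ± 0.27 (SE), adjusted p = 0.101). The gene-level count does not separate the floxed exons from the rest of the transcript, so it does not show whether the deletion took place, and the groups are called by their labels. The 10 follicular markers together fitted the labelled tissue. Their mean log2 CPM was 7.30 to 7.37 in the Thy-Tet1+/+ libraries and 6.95 to 7.14 in those labelled Thy-Tet1-/-. Slc26a4, however, had only 1 to 5 counts per library and was not tested.

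RefSeq promoters of GRCm38.p6, 250 bases before to 50 bases after a transcript start, were at hand for 22 HOX members, 8 of them tested. CG dinucleotides were counted in them because they are the sites at which TET1 acts. The 24 promoters of these 22 genes held between 4 and 45 CG dinucleotides, with a median of 14.5, beside a median of 7 over all 32851 promoters. The 250 bases before the start are shown for 4 tested members, 5′ to 3′ along the gene, with each CG in capitals. Hoxb4 (chr11:96318017-96318266, plus strand) and Hoxd4 (chr2:74721728-74721977, plus strand) passed the limits described further on, whereas Hoxa5 (chr6:52204588-52204837, minus strand) and Hoxd8 (chr2:74704365-74704614, plus strand) did not.
Hoxb4: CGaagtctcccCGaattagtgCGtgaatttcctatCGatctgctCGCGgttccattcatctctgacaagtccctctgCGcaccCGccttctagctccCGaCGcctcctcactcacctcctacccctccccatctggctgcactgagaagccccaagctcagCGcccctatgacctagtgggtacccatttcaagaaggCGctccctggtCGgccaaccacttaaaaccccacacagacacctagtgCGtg
Hoxd4: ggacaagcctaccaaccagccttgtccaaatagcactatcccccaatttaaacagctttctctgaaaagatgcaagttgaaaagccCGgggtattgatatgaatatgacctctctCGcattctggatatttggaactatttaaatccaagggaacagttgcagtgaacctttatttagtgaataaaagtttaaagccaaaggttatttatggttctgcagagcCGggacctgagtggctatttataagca
Hoxa5: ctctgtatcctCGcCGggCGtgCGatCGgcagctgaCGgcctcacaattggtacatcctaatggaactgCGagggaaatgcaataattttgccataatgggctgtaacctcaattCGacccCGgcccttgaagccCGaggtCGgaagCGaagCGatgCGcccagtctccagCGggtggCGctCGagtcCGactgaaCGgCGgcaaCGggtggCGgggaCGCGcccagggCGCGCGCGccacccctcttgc
Hoxd8: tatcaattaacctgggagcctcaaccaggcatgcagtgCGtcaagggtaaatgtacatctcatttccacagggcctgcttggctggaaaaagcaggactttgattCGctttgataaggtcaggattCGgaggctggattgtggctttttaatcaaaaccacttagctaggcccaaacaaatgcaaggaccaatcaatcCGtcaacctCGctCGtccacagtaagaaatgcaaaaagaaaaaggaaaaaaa
The whole promoters of Hoxa3, Hoxb4, Hoxc4 and Hoxd4, which passed the limits, held 20, 14, 9 and 4 CG dinucleotides. Those of the 4 matched members that were tested and did not pass, Hoxa2, Hoxa5, Hoxb8 and Hoxd8, held 9, 29, 13 and 6. The numbers of these groups of 4 promoters overlapped, and methylation was not measured. The letters TGATTNAT, a motif of HOX with PBX, were searched on both strands. They were in 2 of the 24 HOX promoters (8.33%), Hoxa2 and one promoter of Hoxd11, and in 3.22% of all promoters.

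The thyroid libraries held HOX transcripts of the 3′ and middle parts of the clusters and almost none of the 5′ parts. The 39 members took 5862 counts in the 6 libraries together, of which Hoxb2, Hoxb3 and Hoxb4 took 49.6%. No count was found in any library for 10 members, namely Hoxa11, Hoxa13, Hoxc9, Hoxc11, Hoxc12, Hoxc13, Hoxd1, Hoxd11, Hoxd12 and Hoxd13. A further 10 members had between 1 and 7 counts in all 6 libraries together, namely Hoxa6, Hoxa7, Hoxa9, Hoxa10, Hoxb1, Hoxb13, Hoxc6, Hoxc8, Hoxc10 and Hoxd10. These 20 members are reported as not detectable or barely detectable at this depth, with the floors given above as the limit. All 12 members of paralogue groups 10 to 13 were among them, 8 of them at 0.

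Between genes, levels were compared per kilobase of exon (CPM per kb, all annotated exons of GENCODE M21 joined). Hoxb2 had the highest level of all members, with 2.47 ± 0.573 CPM per kb (SD, n = 3) in Thy-Tet1+/+ and 4.49 ± 0.178 in Thy-Tet1-/-. Hoxb4 followed with 1.77 ± 0.178 and 3.65 ± 1.05, and Hoxb3 with 1.56 ± 0.102 and 2.75 ± 0.286. In neither group did neighbours in this order differ by more than the sum of their SDs. In HoxD the highest level was that of Hoxd8, 1.01 ± 0.101 and 1.11 ± 0.348 CPM per kb, and in HoxC that of Hoxc4, 0.534 ± 0.0996 and 1.27 ± 0.607. In HoxA the levels of Hoxa2, Hoxa4 and Hoxa5 were close, with means over all libraries of 0.964, 0.936 and 0.978 CPM per kb. Hoxa3 had 0.724, but 1.68 when its longest transcript was taken as its length, so that its rank in HoxA depends on the length used. Hoxb3 likewise had 2.15 over all libraries, and 2.87 by its longest transcript. The map of mean levels by cluster and number shows that HoxB was filled from 2 to 9, HoxA from 2 to 5, HoxC at 4 and 5, and HoxD at 3, 4, 8 and 9.

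**Figure D1:**
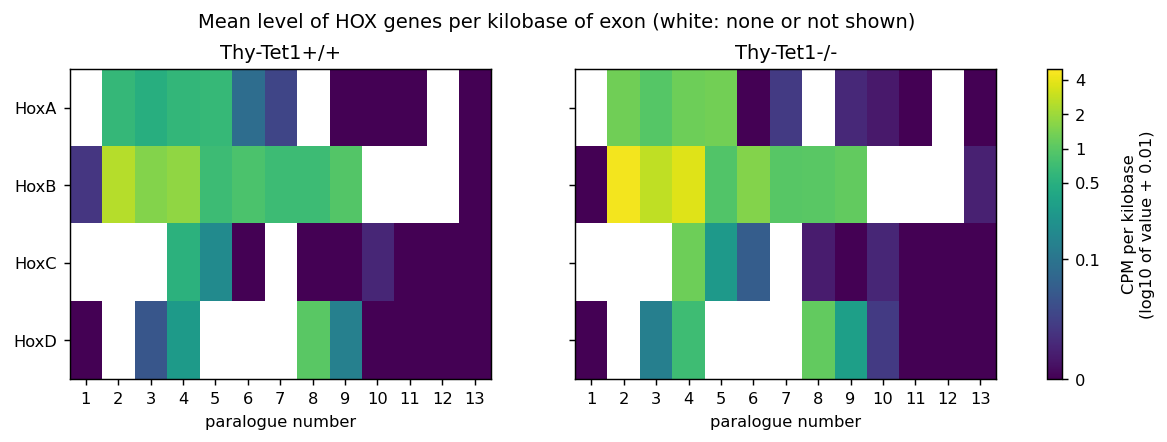
Mean level of HOX genes in CPM per kilobase of exon (colour, log10 of the value + 0.01), by cluster (rows) and paralogue number (columns), for the 3 Thy-Tet1+/+ libraries (left) and the 3 libraries labelled Thy-Tet1-/- (right). Hoxb2, Hoxb3 and Hoxb4 are brightest in both panels, at 2.47, 1.56 and 1.77 on the left and 4.49, 2.75 and 3.65 on the right, and paralogues 10 to 13 are dark, with white where there is no gene or none is shown.

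Summed over all 39 members, HOX transcripts were at 45.1, 37.1 and 42.4 CPM in the Thy-Tet1+/+ libraries and at 88, 69.4 and 62.9 CPM in those labelled Thy-Tet1-/-. Every library labelled Thy-Tet1-/- lay above every Thy-Tet1+/+ library, with means of 41.5 ± 4.05 and 73.4 ± 13.1 CPM (SD, n = 3), a ratio of 1.77. In whole glands, more cells that carry HOX transcripts and more HOX transcripts per cell cannot be told apart. HoxB genes supplied 66 to 70.6% of the HOX counts in every library of either group. The summed level of HoxA was 6.68 ± 2.23 CPM in Thy-Tet1+/+ and 13.4 ± 4.47 in Thy-Tet1-/-, and that of HoxB was 28.8 ± 2.24 and 49.4 ± 7.79. HoxC had 1.97 ± 0.364 and 4.25 ± 2.29 CPM, and HoxD 4.09 ± 0.52 and 6.45 ± 2.06.

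Of the 39 members, 16 passed the filter on low counts and were tested together with 14143 genes in all. Members were read against the limits that the study used for these groups, a change beyond 1.5-fold up or down and a p under 0.05 before adjustment. Past them, 6 members were higher in Thy-Tet1-/-, namely Hoxa3, Hoxb2, Hoxb3, Hoxb4, Hoxc4 and Hoxd4, where 5.54% of all tested genes were higher. No member was past them in the lower direction, where 3.66% of all tested genes were. After Benjamini-Hochberg adjustment over all tested genes, edgeR left 0 HOX members under 0.05, beside 0.113% of all tested genes, and the smallest adjusted p was 0.106, for Hoxb3. At an unadjusted p under 0.05 there were 6 members, the same as past the limits, beside 18.9% of all tested genes in either direction. DESeq2 left 3 members under an adjusted p of 0.05, Hoxb2, Hoxb3 and Hoxb4, and limma-voom left 0. In 8 members the libraries labelled Thy-Tet1-/- all lay above the Thy-Tet1+/+ libraries, where 12.5% of all tested genes did.

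The fitted log2 fold change was above 0 in all 16 tested members, and in 50.1% of all tested genes. The median over these members was 0.87, beside 0.00 over all tested genes, which describes the members that passed the filter and not all 39. A filter that admits a gene with counts in only one group favours differences, and with at least 10 counts required in every library 12 members were tested, of which 7 were past the limits in the higher direction, where 5.76% of all genes tested under that filter were. Under that filter Hoxd4 was no longer tested, and Hoxa5 and Hoxb6 passed with log2 fold changes of 1.12 and 0.89.

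**Figure D2:**
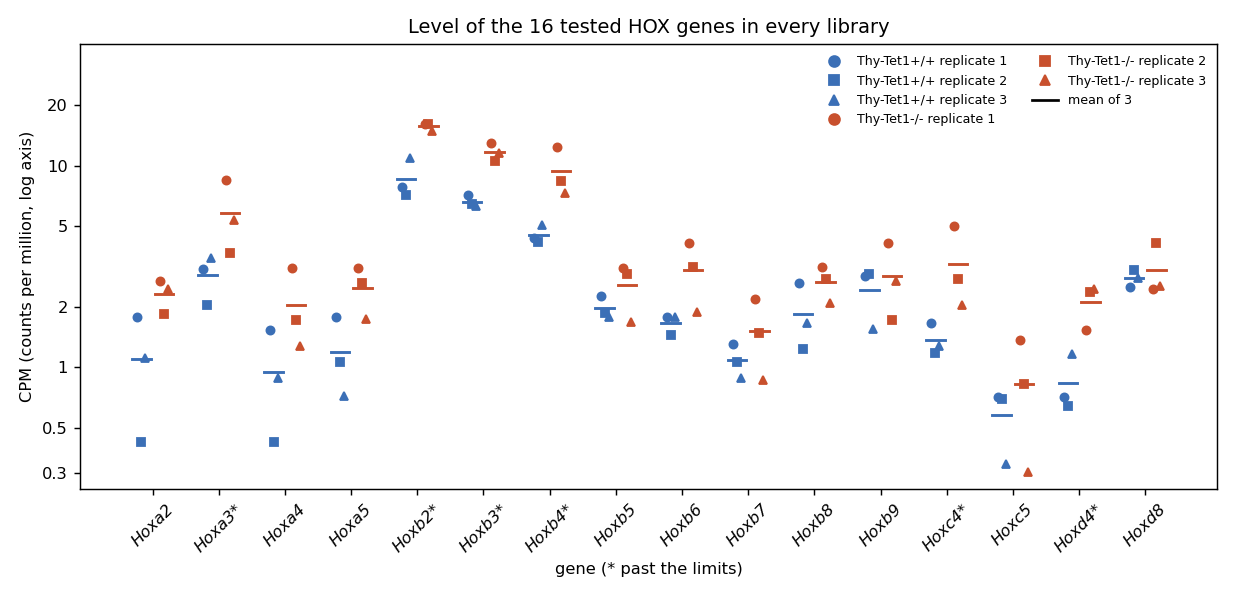
CPM (log axis) of the 16 tested HOX genes in each library, with blue symbols for Thy-Tet1+/+, red symbols for libraries labelled Thy-Tet1-/-, a symbol shape per replicate and a line at the mean of 3. An asterisk marks the 6 genes past the limits, and the groups are apart in these 6, in Hoxa2 (0.428 to 1.78 against 1.84 to 2.67 CPM) and in Hoxb6 (1.44 to 1.78 against 1.88 to 4.14 CPM).

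The 6 calls all lay in paralogue groups 2 to 4, in which 8 of 9 members were tested. These are the genes of the hindbrain and the pharyngeal arches. Their summed level was 28.1, 22.8 and 30.3 CPM in the Thy-Tet1+/+ libraries and 62.7, 47.9 and 47.9 CPM in those labelled Thy-Tet1-/-, a ratio of means of 1.95. Over paralogue groups 5 to 9 the summed level was 16.3, 14 and 11.7 CPM against 24.3, 21.3 and 14.2 CPM, a ratio of 1.43, and these libraries overlapped. The share of HOX counts from paralogues 2 to 4 was 62.4, 61.5 and 71.5% against 71.2, 69.1 and 76.2%, with the groups overlapping. The mean shares were 65.1 ± 5.51% (SD) in Thy-Tet1+/+ and 72.2 ± 3.62% in Thy-Tet1-/-. Whether the change differed between the paralogue ranges was not tested.

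Of the paralogue group 2, Hoxb2 (chr11:96350525-96354012, GRCm38) helps to give hindbrain rhombomeres their identity. It had 7.83, 7.11 and 10.9 CPM in the Thy-Tet1+/+ libraries and 16, 16.1 and 14.9 CPM in those labelled Thy-Tet1-/-. The latter 3 libraries were closer to each other than the Thy-Tet1+/+ libraries were, and the groups did not overlap. The log2 fold change was 0.86 ± 0.21 (SE), a 1.82-fold higher level (edgeR's adjusted p = 0.116). Hoxa2 (chr6:52162417-52164831), which selects the fate of the second pharyngeal arch, had 1.78, 0.428 and 1.11 CPM against 2.67, 1.84 and 2.44 CPM. Its groups did not overlap either, but Thy-Tet1+/+ replicate 2 was far below the other control mice. Its log2 fold change of 1.11 ± 0.54 was not past the limits (edgeR's adjusted p = 0.326). It was 1.58, past them, without Thy-Tet1+/+ replicate 1, and 0.70, not past them, without Thy-Tet1+/+ replicate 2.

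In paralogue group 3, Hoxb3 (chr11:96323326-96347930) had the smallest standard error of the tested members. It stood at 7.12, 6.42 and 6.33 CPM in the Thy-Tet1+/+ libraries and at 13, 10.5 and 11.6 CPM in those labelled Thy-Tet1-/-. The values of each group were close together and far from the other group, at a log2 fold change of 0.82 ± 0.19 (edgeR's adjusted p = 0.106). Hoxa3 (chr6:52169062-52213336), needed for the organs of the third pharyngeal pouch, had 3.08, 2.03 and 3.5 CPM against 8.44, 3.67 and 5.39 CPM. The lowest Thy-Tet1-/- library was only just above the highest Thy-Tet1+/+ library, and replicate 1 of Thy-Tet1-/- was highest. The log2 fold change was 1.03 ± 0.40 (edgeR's adjusted p = 0.239). Without any one of Thy-Tet1+/+ replicates 1 and 2 and Thy-Tet1-/- replicates 1 and 3, Hoxa3 was not past the limits, with log2 fold changes of 1.07, 0.82, 0.64 and 1.08.

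Hoxd3, the third member of this group, did not reach the filter. It had 0, 0.428 and 0.111 CPM in the Thy-Tet1+/+ libraries and 0.599, 0.592 and 0.508 CPM in those labelled Thy-Tet1-/-, with at most 11 counts in a library. The groups did not overlap, but 2 of the 3 Thy-Tet1+/+ values were under the floor of 3 counts, and with all 6 libraries it was not tested. Without Thy-Tet1+/+ replicate 2 it was tested, and was then 1 of the 4 HOX genes past the limits. That library held 8 of its counts, and the Thy-Tet1+/+ libraries then left held 0 and 2. Leaving it out thus favoured the call, and no conclusion is drawn from it. Hoxd9, also untested, had 49 counts over the 6 libraries. Of these, 27 were in Thy-Tet1-/- replicate 2 (1.6 CPM, beside 0.0555 to 0.481 CPM in the other libraries).

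Paralogue group 4, which marks the boundary of hindbrain and neck, was tested in all 4 clusters and had 3 calls. Hoxb4 (chr11:96318267-96321638), known for its part in blood stem cells, had 4.39, 4.17 and 5.05 CPM in Thy-Tet1+/+ libraries and 12.4, 8.41 and 7.27 CPM in those labelled Thy-Tet1-/-. All Thy-Tet1-/- values were above all Thy-Tet1+/+ values, with replicate 1 the highest. The log2 fold change was 1.04 ± 0.27 (edgeR's adjusted p = 0.128). Hoxd4 (chr2:74711929-74729160), a gene of the neck vertebrae, had 0.712, 0.642 and 1.17 CPM against 1.53, 2.37 and 2.44 CPM. Here replicate 1 was the lowest of the Thy-Tet1-/- libraries, unlike in Hoxb4. Its log2 fold change, 1.31 ± 0.42, was the largest of the tested members (edgeR's adjusted p = 0.177), and it was 1.13, 1.21 and 1.18, not past the limits, without Thy-Tet1+/+ replicate 2, Thy-Tet1-/- replicate 2 or Thy-Tet1-/- replicate 3.

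Hoxc4 (chr15:103018934-103036852), needed for the muscle of the oesophagus, was at 1.66, 1.18 and 1.28 CPM in the Thy-Tet1+/+ libraries and at 5.01, 2.73 and 2.03 CPM in those labelled Thy-Tet1-/-. The Thy-Tet1-/- values were spread widely, with replicate 1 far above the others. Its log2 fold change was 1.26 ± 0.44 (edgeR's adjusted p = 0.204), and it was 0.78 without Thy-Tet1-/- replicate 1, and 1.16 and 1.21 without Thy-Tet1+/+ replicate 2 or 3, in each case not past the limits. Hoxa4 (chr6:52189671-52191753) had 1.54, 0.428 and 0.888 CPM against 3.11, 1.72 and 1.27 CPM. Its groups overlapped, and its log2 fold change of 1.14 ± 0.59 was not past the limits (edgeR's adjusted p = 0.35). It was past them without Thy-Tet1+/+ replicate 1 (1.62). It was not past them at 0.76 without Thy-Tet1+/+ replicate 2 or at 0.68 without Thy-Tet1-/- replicate 1. Hoxb2, Hoxb3 and Hoxb4 were past the limits whichever of the 6 libraries was left out.

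Of the 8 tested members of paralogue groups 5 to 9, which are used in the trunk, none was past the limits in edgeR with all 6 libraries, TMM scaling and the usual filter. Hoxa5 (chr6:52201754-52204587), a gene of lung and thyroid development, was nearest, at 1.78, 1.07 and 0.721 CPM in the Thy-Tet1+/+ libraries and 3.11, 2.61 and 1.73 CPM in those labelled Thy-Tet1-/-. The lowest of the latter was just under the highest of the former, and the log2 fold change was 1.09 ± 0.46 (edgeR's adjusted p = 0.269). Without Thy-Tet1+/+ replicate 3 it was 0.82, and without Thy-Tet1-/- replicate 1 it was 0.87, neither past the limits. It was 1.46 without Thy-Tet1+/+ replicate 1 and 1.30 without Thy-Tet1-/- replicate 3, both past the limits. It was also past them at 1.10 with RLE size factors, at 1.11 with the replicate number as a block and at 1.18 in limma-voom. Hoxb6 (chr11:96292476-96301569) had 1.78, 1.44 and 1.78 CPM against 4.14, 3.14 and 1.88 CPM, with no overlap but a narrow gap. Its log2 fold change was 0.87 ± 0.39 (edgeR's adjusted p = 0.288). It was 1.13, past the limits, without Thy-Tet1-/- replicate 3, and 0.57, not past them, without Thy-Tet1-/- replicate 1.

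Hoxb7, with 1.31, 1.07 and 0.888 CPM against 2.18, 1.48 and 0.864 CPM, and Hoxc5, with 0.712, 0.695 and 0.333 CPM against 1.36, 0.829 and 0.305 CPM, each had their lowest value of all in Thy-Tet1-/- replicate 3. Their groups overlapped, and the log2 fold changes were 0.48 ± 0.46 and 0.54 ± 0.66. Hoxd8, the HoxD gene with the highest level, was at 2.49, 3.05 and 2.77 CPM against 2.45, 4.15 and 2.54 CPM. These groups lay over each other (0.13 ± 0.34), and the direction turned to -0.16 without Thy-Tet1-/- replicate 2. The other tested members, Hoxb5, Hoxb8 and Hoxb9, overlapped between groups at means of 1.83 to 2.43 CPM in Thy-Tet1+/+ and 2.56 to 2.85 CPM in Thy-Tet1-/-, with log2 fold changes of 0.39, 0.55 and 0.24. Two-sided exact permutation tests of single members gave 0.1, the smallest p that 3 mice against 3 allow, for the 8 members without overlap, and between 0.2 and 0.9 for the other 8.

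Across members the Thy-Tet1-/- libraries kept an order in most but not all genes. Thy-Tet1-/- replicate 1 held the highest value of the 6 libraries in 13 of the 16 tested members, and Thy-Tet1-/- replicate 3 held the lowest value of its group in 10. Replicate 1 was instead the lowest of its group in 2 members, Hoxd4 and Hoxd8.

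**Figure D3:**
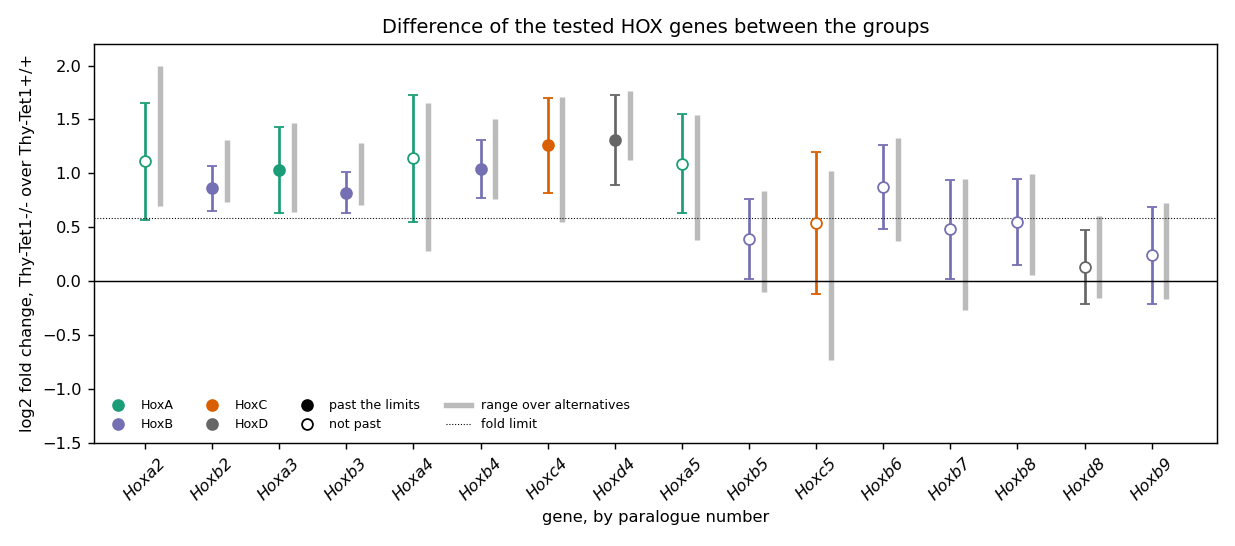
Log2 fold change of Thy-Tet1-/- over Thy-Tet1+/+ for the 16 tested HOX genes in order of paralogue number, with bars of 1 standard error, colour by cluster and filled circles for the 6 genes past the limits. Grey bars give the lowest and highest value over the alternative analyses, which stay above 0 for every gene of paralogue groups 2 to 4 and reach below 0 for Hoxb5, Hoxc5, Hoxb7, Hoxd8 and Hoxb9.

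The exons of 16 of the 39 members overlap those of another annotated gene, on the opposite strand in 10 members. The Hoxb3os antisense transcript covers 2250 bases (52.9%) of the Hoxb3 exons and 953 bases (27.3%) of the Hoxb2 exons. Hoxd4 shares 1154 bases (39.1%) with the same-strand transcript Gm28230 and 388 bases with Hoxd3. Hoxa3 shares, among others, 503 bases (8.36%) with Hoxaas2 on the opposite strand and 482 bases (8.01%) with Gm28308 on its own. Hoxa2 and Hoxa4 share 15 and 16% of their exons with Gm28308 and Gm29430. Apart from Hoxd3, the table lists none of these other transcripts, and whether strand was used in counting is not given. Part of the counts of Hoxa2, Hoxa3, Hoxa4, Hoxb2, Hoxb3, Hoxd3 and Hoxd4 could therefore belong to them. Hoxb4 and Hoxc4 have no exon overlap. Evx1 and Evx2, the homeobox genes next to HoxA and HoxD, had too few counts to be tested, Evx1 being at 0 in every library.

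The proteins that act on HOX clusters were examined as lists of known members. Of 26 Polycomb and Trithorax genes, all tested, 4 were higher past the limits and none lower, at a median log2 fold change of 0.22 (5.54% of all tested genes were higher). Among them were Cbx2, Cbx7 and Pcgf2, all of the Polycomb repressive complex 1. Cbx2, a subunit that reads trimethylated histone H3 lysine 27 and compacts chromatin, had 3.8, 2.09 and 2.89 CPM in the Thy-Tet1+/+ libraries and 9.04, 8.41 and 12.2 CPM in those labelled Thy-Tet1-/-. All 3 Thy-Tet1-/- values were far above the highest Thy-Tet1+/+ value, and the log2 fold change was 1.77 ± 0.31 (edgeR's adjusted p = 0.0817). Cbx7, another reader of that mark, had 45.3, 49.4 and 41.9 CPM against 87.5, 74.6 and 97.9 CPM (log2 fold change 0.93 ± 0.13). Pcgf2, the ring finger subunit also known as Mel18, had 26.9, 27.7 and 29.2 CPM against 56.8, 44 and 50.5 CPM (0.85 ± 0.13). None of these 3 genes overlapped between the groups, and their adjusted p from edgeR was between 0.073 and 0.0817. They were past the limits under every alternative that was run. The methyltransferase genes Ezh1 and Ezh2 had log2 fold changes of 0.30 and 0.32, and Kmt2a, a Trithorax methyltransferase, had 0.33, none of them past the limits.

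Of the 9 TALE cofactors, all tested, 0 were past the limits in edgeR, DESeq2 or limma-voom, and 0 had an unadjusted p under 0.05 in edgeR. Their summed level was 242 to 294 CPM in Thy-Tet1+/+ and 250 to 275 CPM in Thy-Tet1-/-. The smallest p-values were those of Pbx3, with 26.8, 20 and 18.3 CPM against 17, 16.1 and 16.2 CPM (log2 fold change -0.40 ± 0.17, edgeR's adjusted p = 0.275), and Meis1, with 7.36, 5.24 and 8.05 CPM against 8.83, 8.12 and 10.6 CPM (0.42 ± 0.24, edgeR's adjusted p = 0.408). Both were without overlap, in opposite directions.

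Of the 18 retinoic acid genes, 14 were tested, 1 was higher and 1 lower past the limits. Rarg, a nuclear receptor for retinoic acid, had 26.7, 26.1 and 30.7 CPM in the Thy-Tet1+/+ libraries and 44.5, 55.6 and 51.3 CPM in those labelled Thy-Tet1-/- (log2 fold change 0.86 ± 0.13, edgeR's adjusted p = 0.0748). Its groups did not overlap. Without Thy-Tet1+/+ replicate 1, 5 of these genes were past the limits, among them Aldh1a2, Cyp26a1 and Cyp26b1.

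Of the 12 regulators of the pharyngeal pouches, 11 were tested and 0 were past the limits in edgeR or DESeq2, with 1, Six4, past them in limma-voom. At an unadjusted p under 0.05, edgeR had 0. The summed level of these genes was 51.5 CPM in Thy-Tet1+/+ replicate 2 and 245 to 570 CPM in the other 5 libraries, so that the control group was itself uneven. Six4 had 13.9, 4.01 and 11 CPM against 13.5, 17.2 and 14.9 CPM (edgeR's adjusted p = 0.442), and Foxn1, which governs the thymus epithelium, had 0.356, 1.82 and 0.388 CPM against 1.09, 0.592 and 6.81 CPM (edgeR's adjusted p = 0.445). Without Thy-Tet1+/+ replicate 3, 2 of these genes, Pax9 and Tbx1, passed the limits.

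**Figure D4:**
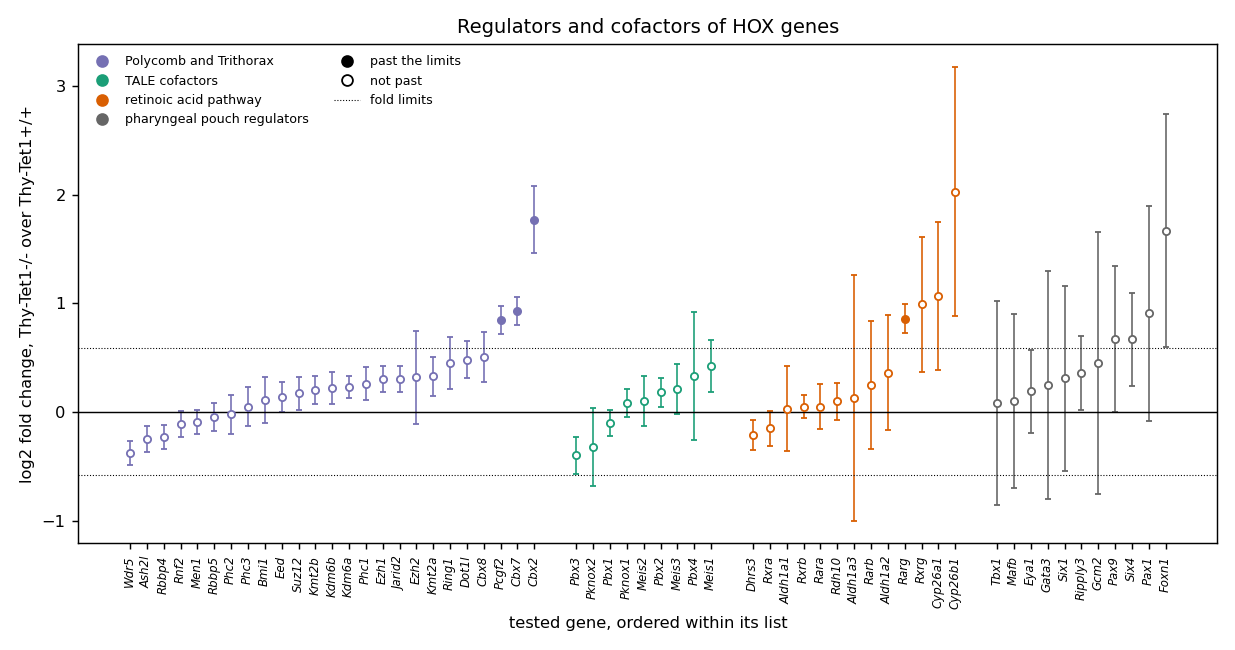
Log2 fold change of Thy-Tet1-/- over Thy-Tet1+/+ with bars of 1 standard error for tested genes of 4 lists, ordered within each list, filled where past the limits. Pcgf2, Cbx7 and Cbx2 stand above the upper dotted line at 0.85, 0.93 and 1.77, Rarg stands at 0.86, and the TALE cofactors stay between -0.40 and 0.42.

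The libraries differed in tissue around the thyroid, and these values moved with the HOX genes in part. Of the 7 adipocyte markers, 3 (Fabp4, Lep and Ucp1) were higher past the limits, and no marker was at 0. Their summed level was 158 to 534 CPM in Thy-Tet1+/+ and 371 to 1739 CPM in Thy-Tet1-/-, with Thy-Tet1-/- replicate 1 highest, as it was for most HOX members, and the groups overlapped. With the adipocyte score as a covariate, 3 of the 6 HOX calls were still past the limits. These were Hoxb2 (0.96), Hoxb3 (0.71) and Hoxd4 (1.75), while Hoxa3 (0.80), Hoxb4 (0.79) and Hoxc4 (0.55) were not, and Hoxb5, Hoxb7, Hoxb9 and Hoxc5 turned below 0.

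Of the 8 fibroblast markers, 2 were higher past the limits, Pdgfra (log2 fold change 0.65) and Pi16 (0.79), where 5.54% of all tested genes were. Others went the other way, namely Col1a1 (-0.27), Col3a1 (-0.26) and Lum (-0.03), and the median of the list was 0.18. The summed level of the list was 932 to 1218 CPM in Thy-Tet1+/+ and 1032 to 1249 CPM in Thy-Tet1-/-, with none at 0, and with its score as a covariate 5 HOX genes were past the limits, including Hoxb2, Hoxb3, Hoxb4 and Hoxd4 and, newly, Hoxa2. Skeletal muscle markers ranged from 790 to 6803 CPM in Thy-Tet1+/+ and from 53.1 to 7373 CPM in Thy-Tet1-/-, with 0 of 10 past the limits, and with their score as a covariate 4 HOX genes were past the limits. The summed parathyroid markers were 269 to 31640 CPM in Thy-Tet1+/+ and 10783 to 21910 CPM in Thy-Tet1-/-, with 0 of 6 past the limits, and their covariate likewise left 4. Hoxb2, Hoxb3, Hoxb4 and Hoxd4 were the 4 in both.

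Of the 6 endothelial markers 0 were past the limits, with 437 to 559 CPM in Thy-Tet1+/+ and 445 to 645 CPM in Thy-Tet1-/-. Of the 7 smooth muscle and pericyte markers 1, Pdgfrb, was higher past the limits and 0 were lower. Only 2 of these 7 had a log2 fold change above 0, and the median was -0.33. The 6 Schwann cell markers had 1 higher and 1 lower, and 5 tested thymocyte and lymphocyte markers had 0, with 1 library, Thy-Tet1-/- replicate 3, at 470 CPM and the others at 12.2 to 130 CPM. The thyroid C cell list had 1 of 6 lower, and that of trachea, oesophagus and cartilage 1 of 5 tested higher. The follicular list had 1 higher and 2 lower of 9 tested, with a median log2 fold change of 0.12, while its mean log2 CPM was lower in Thy-Tet1-/- (difference -0.26), the opposite direction. The part of these cell types in the HOX differences was not tested beyond the covariates given here.

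**Figure D5:**
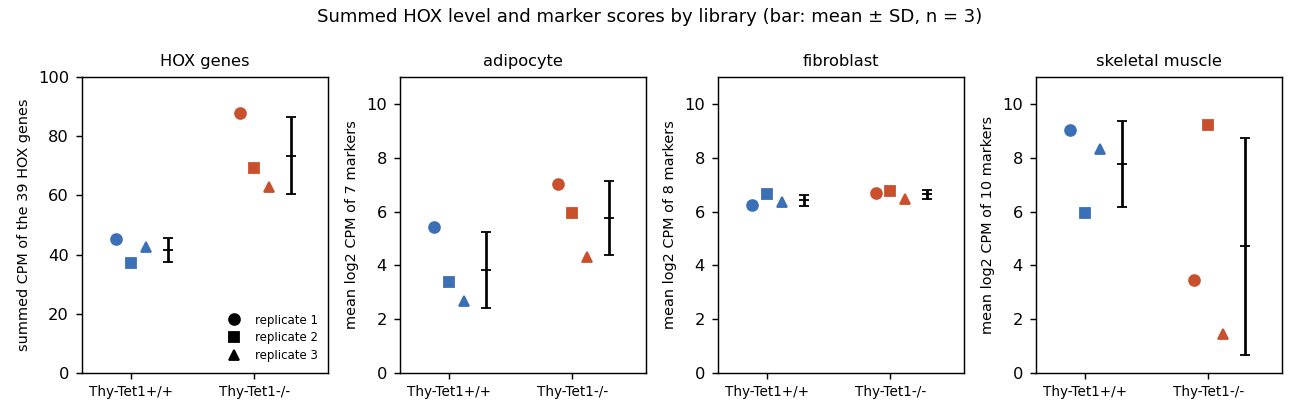
Summed CPM of the 39 HOX genes and mean log2 CPM of adipocyte, fibroblast and skeletal muscle markers in each library (symbols, a shape per replicate), with the mean and SD of 3 libraries in black. The HOX sums of the libraries labelled Thy-Tet1-/- (62.9 to 88) lie above those of Thy-Tet1+/+ (37.1 to 45.1), whereas the marker scores of the groups overlap.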

How the data were processed

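Whole thyroid glands of 3 Thy-Tet1+/+ and 3 Thy-Tet1-/- mice were profiled by RNA-seq. The library protocol in the labels is poly(A)-selected and directional, although it speaks of retinas. The counts deposited by the authors are whole numbers for each of 21878 genes, and they were assumed to be unnormalised read numbers. The submitters' notes name mm10. The aligner, counter and annotation are not given in the sources used here. In the table, 27 symbols spoiled by date conversion were recovered by gene identifier, 4100 genes had no count, and 0 columns of values were left unused.

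Genes were filtered by filterByExpr (14143 kept), scaled by TMM and compared with the quasi-likelihood test of edgeR 4.0.16 in R 4.3.3, fitted on all genes and adjusted by Benjamini-Hochberg. The biological coefficient of variation was 0.327, so that the spread between mice limits precision more than depth does for well-counted genes. Several tested members had under 10 counts in a library, where counting error is at least as large. Replicates of a group differed beyond sampling noise (chi-square per degree of freedom of 40 or more). Marker scores were mean log2 CPM with a prior count of 2. Exon lengths and overlaps came from GENCODE M21 (GRCm38). The code was tested on simulated data.

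All HOX members were to be named, with values in every library for tested members past the limits or without overlap, Hoxa3, Hoxb3, Hoxd3, the highest level per kilobase of each cluster, and the 5 tested members with the largest range within a group (Hoxc5, Hoxa2, Hoxa4, Hoxc4 and Hoxb7). Of the related lists, at most 4 genes past the limits were named, or the 2 with the smallest p. Ezh1, Ezh2, Kmt2a, Aldh1a2, Cyp26a1, Cyp26b1, Pax9 and Tbx1 were named after their values were seen. Members and lists were chosen with earlier results of these data known. Alternatives were RLE size factors, DESeq2 1.42.0, limma-voom (limma 3.58.1), other filters on low counts, scaling to 10 epithelial markers, the replicate block, covariates for muscle and parathyroid scores, and leaving out each library. Covariates for adipocyte and fibroblast scores were chosen after seeing the data. The results for a few genes of these lists are not reported here.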

Additional observations from a re-analysis of the deposited data

How the results depend on the processing

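The direction of the 16 tested HOX genes was above 0 under RLE size factors, DESeq2, limma-voom and epithelial scaling, and over all alternatives 257 of 268 log2 fold changes were. The 11 exceptions were Hoxb9 with the muscle (-0.15) or adipocyte (-0.17) covariate and between -0.16 and 0.49 with a library left out, Hoxb5 (-0.10), Hoxb7 (-0.27) and Hoxc5 (-0.73) with the adipocyte covariate, Hoxc5 (-0.07) and Hoxd8 (-0.14) with the fibroblast covariate, and Hoxc5 (-0.05 to 0.93) and Hoxd8 (-0.16 to 0.24) with a library left out. Scaling to 10 epithelial markers, which were lower in Thy-Tet1-/-, moved the median of all tested genes by 0.46 on the log2 scale. Under it 10 HOX genes were past the limits and 4 had an adjusted p under 0.05, as did 3770 and 2086 of all genes, and 16 Polycomb and Trithorax genes and 3 TALE cofactors were past the limits.

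DESeq2 gave 3 HOX genes and 1192 of all genes with an adjusted p under 0.05, against 0 and 16 in edgeR. That count over all genes was 25 with at least 10 counts in every library and 0 with the replicate block or with the muscle, parathyroid, adipocyte or fibroblast covariate. The adipocyte covariate left 3 HOX genes past the limits. The adipocyte and fibroblast covariates each put 1 TALE cofactor (Pbx3 and Meis1) and 1 pouch regulator past the limits, as limma-voom and the parathyroid covariate did for 1 pouch regulator each. The cause of these changes was not tested. With a library left out, HOX genes past the limits ranged from 4 to 8 and those with an adjusted p under 0.05 stayed at 0. All genes past the limits ranged from 1074 to 1502, and all genes with an adjusted p under 0.05 from 0 to 1. HOX genes without overlap ranged from 8 to 14, the 14 without Thy-Tet1-/- replicate 3. That library was the lowest of its group in 10 tested members, and smaller groups separate more easily. The share of all tested genes without overlap was not computed for these sets, so this range has no background. Left-out libraries gave 2 to 5 retinoic acid genes, 0 to 2 pouch regulators, 3 to 6 Polycomb and Trithorax genes and 0 TALE cofactors.

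The labels number the mice 1 to 3 in each group, but same-numbered mice did not deviate together (correlations of -0.167, -0.372 and -0.193). These correlations gave no sign of pairing by number, but they cannot show that there was none. With the replicate block, 7 HOX genes were past the limits and 0 had an adjusted p under 0.05. No value was computed for the noncoding transcripts of the HOX clusters, which the table does not list. By the longest transcript the level of Hoxa3 was 1.68 and that of Hoxb3 2.87 CPM per kb.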
